A study of Homo sapiens with 6 samples.

Results

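Iron uptake, storage and regulation were examined in Hep3B cells through 10 genes chosen by name: transferrin (TF) and its receptors TFRC and TFR2, the ferrous iron transporter SLC11A2, the ferritin chains FTH1 and FTL, the exporter ferroportin (SLC40A1), its hormone hepcidin (HAMP), and the iron regulatory proteins ACO1 and IREB2. Each was matched to its row through its Ensembl identifier, and all 10 were found among the 23406 features. Of these, 9 were among the 14071 features with enough counts to test, and HAMP was not. Hep3B is a human hepatocellular carcinoma line, and 6 RNA sequencing libraries were made from it, 3 of shControl cells and 3 of shNXN cells. NXN (nucleoredoxin) is a redox-active protein of the thioredoxin family. Both groups had the same Hep3B genotype (labelled WT), received an shRNA by lentivirus and were selected with puromycin, so vector and drug were shared by the controls. Total RNA was collected on days 7, 9 and 11, with 1 library for each group and day. The labels leave unclear whether the days count from transduction or from the end of selection, and they do not say which NXN shRNA was used. The replicates of a group are therefore its 3 days, nothing says that they came from separate cultures, and p-values measure the spread between these libraries only.

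Iron circulates bound to transferrin, enters cells when the transferrin receptor carries it into endosomes, and leaves the endosome through SLC11A2. Inside the cell it is stored in shells built of ferritin heavy and light chains, and surplus iron leaves through ferroportin, which hepcidin binds and sends for degradation. When iron is scarce, the iron regulatory proteins IRP1 (ACO1) and IRP2 (IREB2) bind short hairpins in mRNAs called iron-responsive elements, which blocks translation of ferritin and ferroportin and protects the TFRC mRNA from decay. Hepatocytes secrete transferrin and hepcidin and hold much of the body's ferritin.

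The elements themselves are shown because those of the ferritin and ferroportin mRNAs lie in the 5′ UTR and those of TFRC in the 3′ UTR. They were searched in GENCODE 29 transcripts (GRCh38), on the transcript's own strand, as a bulged C, 5 stem bases, the loop CAGTGN, and 5 bases that pair with the stem, G-T pairs allowed. A match in the 5′ UTR was present in 0.128% of mRNAs with a 5′ UTR, and a match in the 3′ UTR in 0.508% of mRNAs with a 3′ UTR. Sequences run 5′ to 3′ over 29 bases, with the loop in capitals. The ferritin and ferroportin mRNAs each held 1 match in the 5′ UTR, at chr11:61967574-61967602 on the minus strand for FTH1, chr19:48965335-48965363 on the plus strand for FTL, and chr2:189580661-189580689 on the minus strand for SLC40A1.
FTH1: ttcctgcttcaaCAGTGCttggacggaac
FTL: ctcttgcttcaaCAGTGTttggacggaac
SLC40A1: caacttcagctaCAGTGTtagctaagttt
The TFRC mRNA held 4 matches in its 3′ UTR, all on the minus strand, listed from the coding end onwards: chr3:196050979-196051007, chr3:196050575-196050603, chr3:196050510-196050538 and chr3:196050463-196050491.
TFRC 1: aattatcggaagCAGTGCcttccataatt
TFRC 2: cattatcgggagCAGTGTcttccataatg
TFRC 3: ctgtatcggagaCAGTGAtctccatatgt
TFRC 4: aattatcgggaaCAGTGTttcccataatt
The letters searched were not found in the UTRs of the SLC11A2, TFR2, HAMP, ACO1 or IREB2 transcripts used, which says nothing of other transcripts or of weaker hairpins. TF held a match only in the very long 3′ UTR of its annotated transcript.

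Library totals lay between 15349382 and 16332589 estimated counts. NXN itself (ENSG00000167693) was at 181, 138 and 143 CPM (counts per 1000000, scaled by TMM factors) in shControl cells on days 7, 9 and 11 and at 42.7, 47.5 and 39.5 CPM in shNXN cells. Its log2 fold change was -1.83 ± 0.16 (SE; adjusted p = 0.0378, quasi-likelihood test of edgeR, Benjamini-Hochberg over all features). It was not called without the shControl library of day 7 (-1.67) or 11 (-1.82), or the shNXN library of day 7 (-1.82) or 9 (-1.90). The hepatocyte markers ALB, AFP, APOA1, APOB, TTR, SERPINA1 and HNF4A (7 of 7) were present, although ALB spanned 6955 to 13650 CPM in shControl and 683 to 7250 CPM in shNXN libraries. The defining leukocyte gene PTPRC had 4 counts and the endothelial gene CDH5 had 1 over all libraries, and HBB, HBA2 and VWF were at 0, whereas CD68 ran from 57.4 to 75.6 CPM in shControl and from 87.1 to 97.1 CPM in shNXN libraries and LYZ from 95.2 to 157 and from 150 to 281 CPM. Their part in the results was not tested. Day 11 stood apart in both groups. In shControl cells the chi-square per feature between counts was 49.2 and 77.8 for pairs with day 11 and 30.8 for days 7 and 9. In shNXN cells it was 56.5 and 73.2 against 20.1. Leaving out the shNXN library of day 11 raised the number of features called from 477 to 3706. Leaving out the shControl library of day 11 gave 0, and leaving out both gave 4519. Across 12740 features the log2 fold change followed the GC content of the longest transcript (Spearman's rho = 0.789, across genes, which are not independent replicates), so each iron gene is given with its GC content and with its value after correction for GC trends, beside a median of 48.4% GC.

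Ferritin and transferrin were the most abundant of these transcripts per transcript length, as FPKM. In shControl cells the order of mean FPKM was FTL (5061 ± 1026, SD, n = 3), FTH1 (2361 ± 339), TF (986 ± 117), TFRC (105 ± 21.1), SLC40A1 (37.4 ± 16.03), IREB2 (29.03 ± 7.29), SLC11A2 (28.1 ± 3.29), ACO1 (21.0 ± 4.93), TFR2 (2.10 ± 0.932) and HAMP (0.363 ± 0.0929). The ranges of neighbours in this order did not overlap between FTL, FTH1, TF, TFRC and SLC40A1. SLC40A1, IREB2 and SLC11A2 overlapped their neighbours and cannot be ordered. ACO1 lay below SLC11A2, TFR2 below ACO1 and HAMP below TFR2 in separate ranges. The range of ACO1 (15.4 to 24.8 FPKM) overlapped that of IREB2 (23.4 to 37.3 FPKM), so that pair cannot be ordered either.

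None of the 9 tested genes passed an adjusted p of 0.05 in the comparison of the groups, against 3.39% of all features tested (3.21% lower and 0.185% higher in shNXN cells). Without adjustment, 4 of the 9 (TFRC, FTH1, SLC40A1 and IREB2) had a p under 0.05 in edgeR, against 32.9% of all features tested. After adjustment, limma on log2(FPKM + 1) called 0 of the 9, where 287 of 14071 features were called. DESeq2 called 3 (TFRC, SLC40A1 and IREB2) against a background of 23.5%. With the day entered as a replicate block, 2 of 9 were called, TFRC and IREB2, both lower, against 23.3% of all features (17.0% lower and 6.28% higher). No iron gene was called after the GC correction, where 0.0355% of features were, nor in the fit that joined both terms, where 0.924% were, nor in the latter with the GC content of the transcript nearest the implied length (described with TF), where 4.77% were. In 3 of 9 genes the groups were fully separated in CPM, with all shNXN libraries below all shControl libraries (TFRC, SLC40A1 and IREB2), against 21.5% of all features. In 1 of 9 (FTH1) they were all above, against 19.0%.

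**Figure D1:**
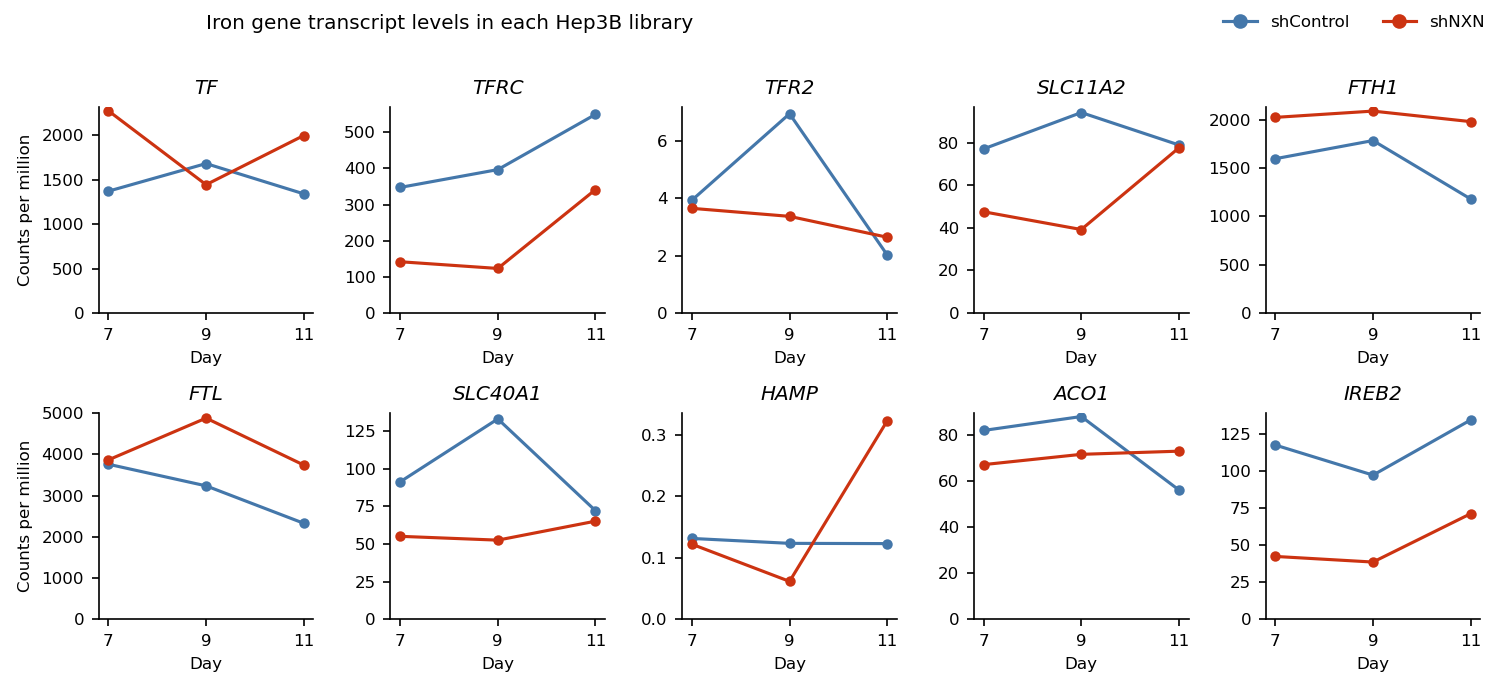
CPM (vertical axes, from 0) of the 10 iron genes on days 7, 9 and 11 in shControl (blue) and shNXN (red) cells, 1 library per point. TFRC, IREB2, SLC40A1 and SLC11A2 lie lower in shNXN cells on every day, SLC11A2 only at 77.7 against 79.0 CPM on day 11. FTH1 and FTL lie higher on every day, FTL only at 3868 against 3762 CPM on day 7. HAMP does not exceed 0.322 CPM.

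TF (ENSG00000091513; chr3:133745956-133796640, plus strand) encodes the plasma iron carrier. In shControl cells it was at 1372, 1683 and 1342 CPM on days 7, 9 and 11. The shNXN cells had 2277, 1445 and 1999 CPM. The groups overlapped, with shNXN cells higher on days 7 and 11 and lower on day 9. The log2 fold change was 0.38 ± 0.19 (edgeR adjusted p = 0.208). The GC correction, made with the longest annotated transcript of 20602 bases and 42.2% GC, moved it to 1.04 (adjusted p = 0.0905). The counts and FPKM values imply a length of 1.44 kb, and with the annotated transcript nearest to that length (56.0% GC) the corrected value was 0.11 (adjusted p = 0.845). This choice of transcript was added after seeing the data.

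TFRC (ENSG00000072274; chr3:196027183-196082189, minus strand), the receptor that imports iron-loaded transferrin, had the largest log2 fold change of the uptake genes before GC correction, and TF (1.04) and TFR2 (-0.76) exceeded it after. Its level was 347, 397 and 550 CPM in shControl cells against 142, 123 and 341 CPM in shNXN cells. The groups did not overlap in CPM, but the highest shNXN library, of day 11, came close to the lowest shControl library, of day 7. Per day the log2 difference was -1.29, -1.69 and -0.69. The fitted log2 fold change was -1.09 ± 0.40 (edgeR adjusted p = 0.118), and the replicate block gave -1.22 ± 0.21 (adjusted p = 0.0223). Without the shNXN library of day 11 it was -1.70 (adjusted p = 0.0029). TFRC transcripts have 41.5% GC, and after GC correction the value was -0.44 (adjusted p = 0.413), or -0.47 with the replicate block as well (adjusted p = 0.112). With the transcript nearest the implied length it was -0.24 (adjusted p = 0.629), or -0.25 with the block (adjusted p = 0.232). In FPKM the groups overlapped, with 81.1 to 122 in shControl and 39.7 to 102 in shNXN cells. On the log2(FPKM + 1) scale the change was -0.87 (limma adjusted p = 0.153). The counts do not separate decay of the mRNA, which acts through the 3′ UTR elements shown above, from its synthesis, and in these bulk libraries fewer expressing cells and less RNA per cell cannot be told apart.

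TFR2 (ENSG00000106327; chr7:100620416-100642779, minus strand) is the receptor by which hepatocytes sense transferrin saturation. It was low, at 3.93, 6.95 and 2.02 CPM in shControl and 3.65, 3.37 and 2.64 CPM in shNXN cells, from 33 to 113 counts per library. The groups overlapped and the day 9 control was the highest of the 6 libraries. On the log2 scale the change was -0.42 ± 0.45 (edgeR adjusted p = 0.53), and without the shControl library of day 9 its sign turned (0.16). After GC correction (62.0% GC) the value was -0.76 (adjusted p = 0.371). No difference was detected beyond the spread between libraries, which in the controls alone ran from 2.02 to 6.95 CPM.

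SLC11A2 (ENSG00000110911; chr12:50979401-51028566, minus strand) moves ferrous iron out of endosomes. It was at 77.2, 94.3 and 79.0 CPM in shControl cells and at 47.6, 39.2 and 77.7 CPM in shNXN cells. The shNXN libraries of days 7 and 9 were below every control, and that of day 11 was level with the controls. The log2 fold change was -0.61 ± 0.26 (edgeR adjusted p = 0.157) and -0.94 without the shNXN library of day 11 (adjusted p = 0.00938). In that fit 3 of 9 iron genes were called, SLC11A2, TFRC and IREB2, against 25.8% of features. After GC correction (43.0% GC) the value was -0.11 (adjusted p = 0.828), and 0.17 with the transcript nearest the implied length (adjusted p = 0.648). On the log2(FPKM + 1) scale it was -0.04 (limma adjusted p = 0.874).

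**Figure D2:**
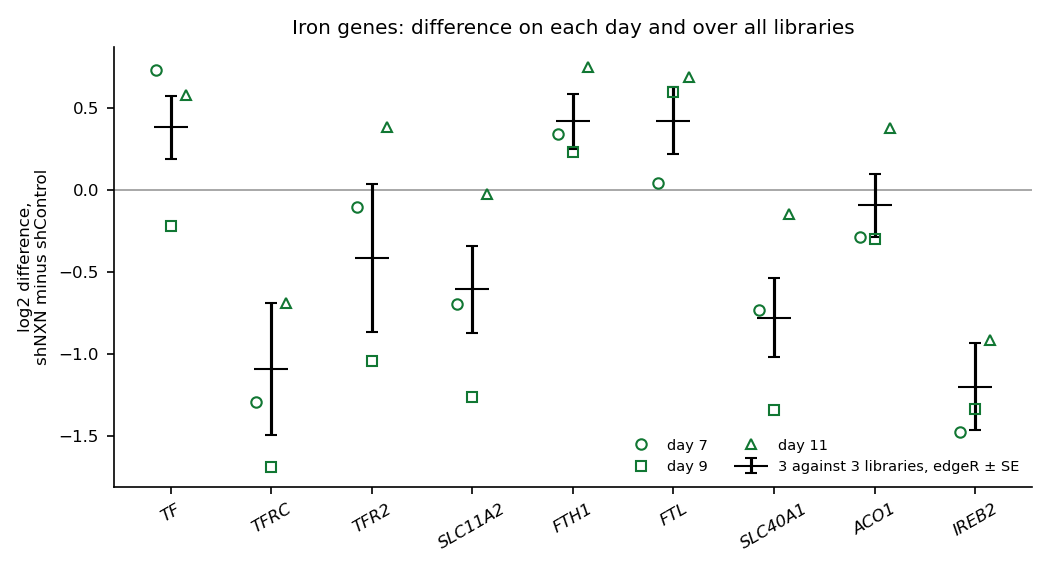
The log2 difference in CPM between shNXN and shControl cells on each day (open symbols, 1 library against 1) and the edgeR log2 fold change with its SE (black bars, 3 against 3 libraries) for the 9 tested iron genes. TFRC, IREB2, SLC40A1 and SLC11A2 are below 0 on every day, SLC11A2 only at -0.02 on day 11. FTH1 and FTL are above 0 on every day, FTL only at 0.04 on day 7. The sign varies between days for TF, TFR2 and ACO1.

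Both ferritin chains were at higher mean levels in shNXN cells, and neither passed the test. FTH1 (ENSG00000167996; chr11:61959718-61967660, minus strand), the heavy chain that oxidises ferrous iron, was at 1597, 1785 and 1180 CPM in shControl and 2025, 2090 and 1981 CPM in shNXN cells. Every shNXN library was above every shControl library. On the log2 scale the change was 0.42 ± 0.17 (edgeR adjusted p = 0.138; 0.0627 with the replicate block), 0.27 after GC correction (50.1% GC, adjusted p = 0.425) and 0.84 on the log2(FPKM + 1) scale (limma adjusted p = 0.08). FTH1 counts had decimals in these libraries, as estimated counts can have where reads are shared among features, and are uncertain to that extent. Counts of NXN, SMAD5, ACVR2A, BMPR1A and HSCB had decimals in some or all libraries too. Those of TF, TFRC, SLC11A2, SLC40A1 and ACO1 were whole numbers. No feature carried the name of a ferritin pseudogene (0 with a symbol beginning FTH1P or FTLP).

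FTL (ENSG00000087086; chr19:48965301-48966878, plus strand), the light chain that helps form the iron core, was the most abundant of the iron genes. It was at 3762, 3237 and 2328 CPM in shControl cells. In shNXN cells it was at 3868, 4883 and 3743 CPM. The groups overlapped narrowly, since the lowest shNXN library (day 11) was just below the highest control (day 7). The log2 fold change was 0.42 ± 0.20 (edgeR adjusted p = 0.192), and 0.09 after GC correction (56.3% GC, adjusted p = 0.869). The ratio of FTH1 to FTL in CPM, taken within each library and so free of its scaling, was 0.494 ± 0.0644 (SD, n = 3) in shControl and 0.494 ± 0.0569 in shNXN cells. On FPKM values it was 0.471 ± 0.0324 and 0.5997 ± 0.0720, so the balance of heavy and light chain depended on the unit.

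The ratio of TFRC to FTH1, an import gene against a storage gene, was 0.302 ± 0.142 (SD, n = 3) in shControl and 0.1004 ± 0.0625 in shNXN cells by CPM. By library it was 0.217, 0.222 and 0.466 in shControl cells and 0.0700, 0.0589 and 0.172 in shNXN cells on days 7, 9 and 11. The groups did not overlap, and in both groups the ratio was highest on day 11. The difference of the mean log2 ratios was -1.66 by CPM and -1.72 by FPKM. TFRC and FTH1 lie on opposite sides of the median GC content, and the part of the GC trend in this ratio was not tested.

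SLC40A1 (ENSG00000138449; chr2:189560579-189583758, minus strand), the iron exporter, gave opposite directions in the counts and in the FPKM values. By counts it was at 91.3, 133 and 72.1 CPM in shControl cells against 55.1, 52.5 and 65.2 CPM in shNXN cells. By FPKM it was at 30.4, 55.7 and 26.0 in shControl and 65.6, 68.0 and 38.5 in shNXN cells. All shNXN libraries were thus below the controls in CPM, while in FPKM those of days 7 and 9 were above every control. On the log2 scale the change was -0.78 ± 0.24 by counts (edgeR adjusted p = 0.0859; DESeq2 adjusted p = 0.0279) and 0.64 on the log2(FPKM + 1) scale (limma adjusted p = 0.219), where the median over all features was 0.126. The length implied by dividing CPM by FPKM was 2.98, 2.38 and 2.77 kb in shControl and 0.862, 0.785 and 1.64 kb in shNXN cells, so a transcript length that differed between libraries entered the FPKM values. After GC correction (42.4% GC) the count value was -0.17 (adjusted p = 0.823), and 0.01 with the transcript nearest the implied length (adjusted p = 0.992).

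Implied lengths also differed between libraries for FTH1, SLC11A2, TFRC and IREB2. FTH1 was at 0.585, 0.762 and 0.578 kb in shControl cells and at 0.454, 0.458 and 0.552 kb in shNXN cells, so that the groups did not overlap, and these lengths enter its FPKM values and the FPKM ratio of FTH1 to FTL. SLC11A2 was at 2.94, 2.95 and 3.0 kb in shControl cells and at 1.52, 1.67 and 2.89 kb in shNXN cells. TFRC was at 4.26, 3.58 and 4.49 kb against 3.41, 3.14 and 3.22 kb. IREB2 was at 4.99, 2.61 and 5.10 kb against 2.80, 3.16 and 3.49 kb, with the day 9 control the shortest. ACO1 stayed between 3.54 and 3.84 kb in all 6 libraries. Whether the cells used other transcripts or the quantification assigned them differently was not tested.

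HAMP (ENSG00000105697; chr19:35280716-35285143, plus strand), the hormone that removes ferroportin from the cell surface, was barely detected. It had 2, 2 and 2.01 estimated counts in shControl cells and 2, 1 and 5 in shNXN cells. With no shControl library above the floor of 3 counts, no fold is given, and a difference was not detectable at this depth.

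ACO1 (ENSG00000122729; chr9:32384603-32454769, plus strand) encodes IRP1, which is cytosolic aconitase when it carries an iron-sulfur cluster. It was at 81.8, 87.9 and 56.0 CPM in shControl cells and 67.0, 71.5 and 72.8 CPM in shNXN cells. The shNXN values lay inside the span of the controls. The log2 fold change was -0.10 ± 0.19 (edgeR adjusted p = 0.742) and turned to 0.12 after GC correction (45.7% GC).

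IREB2 (ENSG00000136381; chr15:78437431-78501456, plus strand) encodes IRP2, whose protein is degraded when iron is plentiful. It was at 118, 97.5 and 135 CPM in shControl cells. In shNXN cells it was at 42.4, 38.6 and 71.3 CPM. All shNXN libraries were below all controls, and in both groups day 11 was the highest. The per-day log2 differences were -1.47, -1.34 and -0.92. On the log2 scale the change was -1.20 ± 0.26, the nearest of the iron genes to the threshold (edgeR adjusted p = 0.0538), and -1.24 ± 0.15 with the replicate block (adjusted p = 0.0147). It had the lowest GC content of the iron genes, 38.3%, and after GC correction the value was -0.11 (adjusted p = 0.739), or -0.28 with the transcript nearest the implied length (adjusted p = 0.272). IREB2 counts also had decimals and are uncertain in the same way. The ratio of ACO1 to IREB2 was 0.671 ± 0.244 (SD, n = 3) by CPM in shControl and 1.48 ± 0.423 in shNXN cells, and its lowest shNXN value (1.02) was above its highest shControl value (0.902). By FPKM the ratio was 0.741 ± 0.205 in shControl and 1.24 ± 0.292 in shNXN cells. The GC-corrected log2 fold changes were 0.12 for ACO1 and -0.11 for IREB2. The part of the GC trend in this ratio was not tested.

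**Figure D3:**
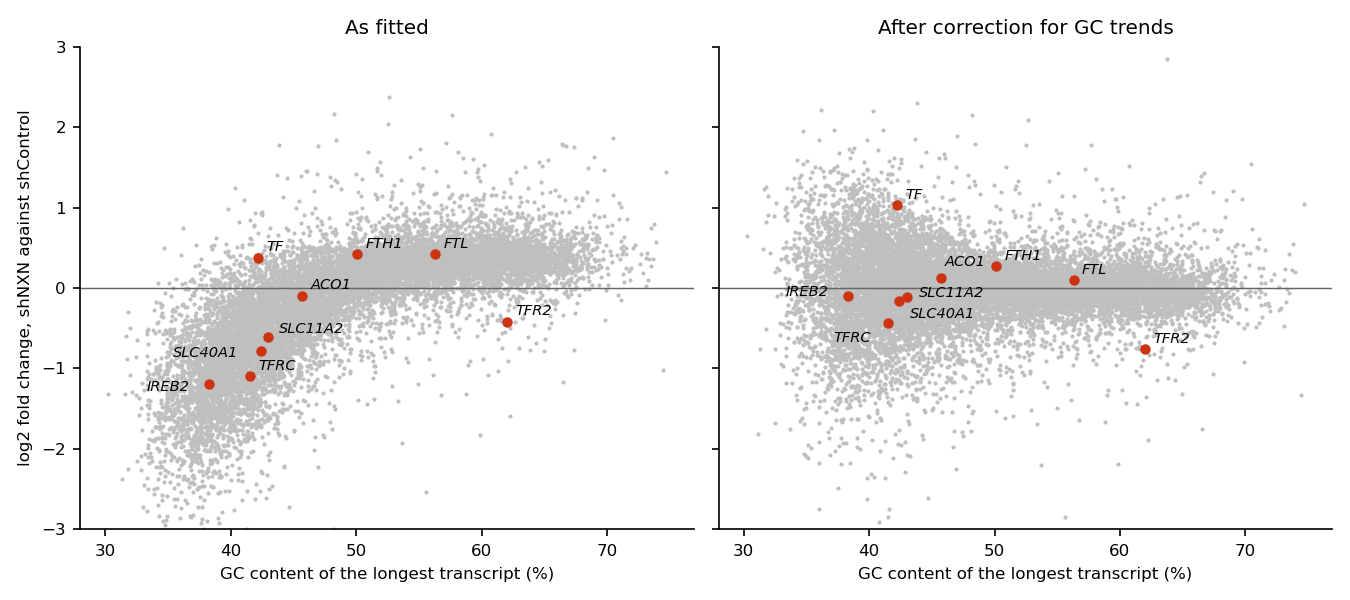
The log2 fold change (shNXN against shControl, edgeR) of each feature against the GC content of its longest transcript in percent, before (left) and after (right) correction for GC trends, with the 9 tested iron genes in red. Before correction IREB2, TFRC, SLC40A1 and SLC11A2 lie below 0 at the low end of GC content, after it they lie between -0.44 and -0.11, and 37 features (left) and 11 (right) fall beyond the axis.

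By mean absolute difference of centred log2 CPM over the 6 libraries, the iron gene nearest in pattern was looked up for each member among 88 iron genes. TFRC was nearest to IREB2 (0.223, against a median of 0.785), and IREB2 to SMAD5 (0.109, against 0.749). FTH1 was nearest to GFER (0.098) and FTL to GLRX5 (0.089). SLC40A1 was nearest to STEAP1 (0.135), SLC11A2 to HSPA9 (0.116), TF to NEO1 (0.138), TFR2 to TMPRSS6 (0.218) and ACO1 to UROS (0.05). The libraries share the GC trend, and these values are a description.

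Of 90 other iron pathway genes listed by role, 89 had a row and 80 were tested. In the comparison of the groups 2 were called, both lower, against the background of 3.39%. FBXL5, the iron-sensing ubiquitin ligase subunit that marks IRP2 for degradation, was at 41.9, 58.9 and 49.4 CPM in shControl and 11.9, 12.1 and 24.4 CPM in shNXN cells, and fell by 1.63 ± 0.32 on the log2 scale (edgeR adjusted p = 0.0488). ACVR2A, an activin and BMP receptor, was at 29.04, 25.0 and 24.1 CPM against 11.6, 8.40 and 13.1 CPM, and fell by 1.24 ± 0.22 (adjusted p = 0.0455). For both genes all shNXN libraries were below all controls, but 0 of the 80 genes were called when any library other than the shNXN library of day 11 was left out. After GC correction the values were -0.83 for FBXL5 (40.5% GC, adjusted p = 0.123) and -0.17 for ACVR2A (38.7% GC, adjusted p = 0.767). With the replicate block 17 of the 80 were called, 9 higher and 8 lower, against 6.28% and 17.0% of all features. Adding the GC correction to that block left 0 called, against 0.924% of features.

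Among 16 tested genes of hepcidin control, which acts through BMP signalling, 4 fell in the fit with the replicate block, the receptors BMPR1A, BMPR2 and ACVR2A and the signal transducer SMAD5, and 1 rose, the protease FURIN, against 17.0% lower and 6.28% higher over all features. After GC correction on the longest transcript 0 of the 16 were called, with or without the block. Values given here and below for the pathway genes are log2 fold changes without the block. BMPR1A went from between 45.6 and 56.7 CPM in shControl to between 11.3 and 28.0 CPM in shNXN cells (log2 fold change -1.51, edgeR adjusted p = 0.0584 without the block). SMAD5 had a log2 fold change of -1.28 and BMPR2 of -0.82, and FURIN one of 0.53. After GC correction BMPR2 turned to 0.42 and FURIN was at 0.15. For SMAD5 the corrected value depended on the transcript, -0.02 with the longest (adjusted p = 0.969) and -1.05 with the one nearest the implied length (adjusted p = 0.0703; -1.04 with the replicate block, adjusted p = 0.0255). The median over the list was -0.08, and 8 members were positive and 8 negative.

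Iron-sulfur cluster assembly (26 tested) had positive values for 22 genes, with a median log2 fold change of 0.26 against 0.03 over all features tested, where 51.4% were positive. After GC correction 17 of the 26 were positive and the median was 0.17. The replicate block called 2 of them, both higher: HSCB, a co-chaperone of cluster transfer, with a log2 fold change of 0.84, and FDXR, ferredoxin reductase, with 0.74. HSCB was between 5.35 and 6.16 CPM in shControl and between 8.96 and 11.2 CPM in shNXN cells.

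Heme synthesis (11 tested) had 8 positive values and a median of 0.27, against 51.4% positive and a median of 0.03 over all features. After GC correction 6 of the 11 were positive and the median was 0.13. UROD (0.40), a cytosolic enzyme of the pathway, was among those called higher with the replicate block, against 6.28% of all features. Among 10 genes of heme uptake, export and breakdown, the block called BLVRB (0.55), a biliverdin reductase, and LRP1 (0.43), a receptor for hemopexin-bound heme, higher and FLVCR1 (-0.50), a heme exporter, lower, FLVCR1 turning to 0.04 after GC correction. Among 9 genes of iron entry it called LCN2 (0.89), which binds siderophores, higher and the metal importer SLC39A8 (-1.01) lower. Of the 3 chaperone and turnover genes tested, it called the iron chaperone PCBP1 (0.43) higher and FBXL5 lower. The ferroxidase tested was not called, and of 4 other mRNAs with a known iron-responsive element CDC42BPA (-0.65) was called lower. ALAS2, the erythroid enzyme whose mRNA has such an element, was below the count filter. All these counts stand beside 6.28% of all features called higher and 17.0% called lower in that fit. After GC correction the values were 0.13 for UROD, 0.20 for BLVRB, 0.06 for LRP1, 0.56 for LCN2 and -0.71 for SLC39A8. They were 0.12 for PCBP1 and -0.23 for CDC42BPA, and 0 genes of these lists were called.

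**Figure D4:**
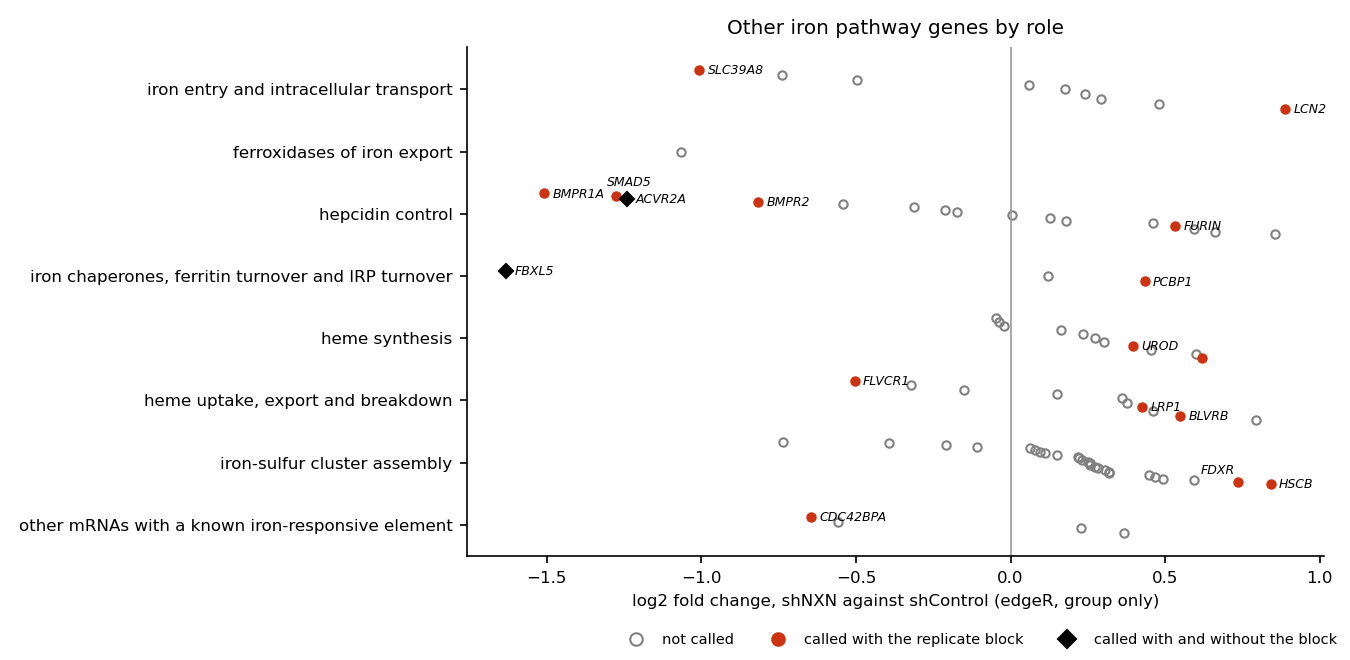
The log2 fold change (shNXN against shControl, edgeR, group only) of 80 other iron pathway genes, in rows by role. Labels name the called genes described in the text. Open circles were not called, red circles were called with the replicate block, and black diamonds (ACVR2A and FBXL5) were called with and without it. Genes of iron-sulfur cluster assembly lie mostly to the right of 0.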

How the data were processed

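Total RNA of 6 Hep3B libraries was sequenced (SMARTER mRNA kit per the labels). The authors deposited an estimated count and an FPKM value per feature and library, both with 2 decimals. The aligner and counter are not given in the sources used here. The submitters' processing notes name GRCm38 and mm10, which are mouse builds, whereas the identifiers are human, so coordinates come from GENCODE 29 (GRCh38) by identifier. Of 20314 Ensembl features 19030 had a symbol, and 0 columns had no sample. NCOA4 and PECAM1 had no matching row and are not analysed here.

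The test was that of edgeR 4.0.16 in R 4.3.3 on rounded counts (TMM, filterByExpr, quasi-likelihood test, group only), with Benjamini-Hochberg adjustment over all features and a threshold of 0.05. The SE is the log2 fold change divided by the root of F. Length implied by a library is its unscaled CPM (counts per 1000000) over its FPKM. GC content is that of the longest GENCODE 29 transcript, and the correction entered a spline with 5 degrees of freedom per library as an offset. Alternatives were RLE factors, library size only, DESeq2 1.42.0, 2 other count filters, limma 3.58.1 on log2(FPKM + 1) and log2(FPKM + 0.1), the replicate block, GC correction and each library or day left out. The edgeR fits by group only, with the replicate block and with GC correction, DESeq2 and limma on log2(FPKM + 1) were tested on simulated counts. The simulation held no day effect and no GC trend, so it cannot show how the fits handle either. Elements were searched in the mRNA with the longest coding sequence of each gene.

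The replicate numbers follow the days given in the labels, so a number marks a shared day. Deviations from the group means correlated at 0.304, 0.309 and 0.451 for the same day and between -0.368 and 0.148 for different days. Members and lists were chosen with earlier results of these data known. Named were all 10 members, NXN, other iron genes called with or without the block (at most 30, by p) and the nearest pattern for each member above a mean of 1 CPM. Some genes of the lists are not reported here by name, and CPOX falls outside this rule and was named after its values were seen. Python 3.11.15 was used with pandas 2.3.3, numpy 2.4.6 and scipy 1.17.1.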

Additional observations from a re-analysis of the deposited data

Results flagged for a closer look

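For 3 iron genes the difference between shNXN and shControl cells had a different sign on different days. The difference between days was not tested, since there was 1 library per group and day. TF had a log2 difference in CPM of 0.73 on day 7, -0.22 on day 9 and 0.58 on day 11. TFR2 had -0.11, -1.04 and 0.38 on the same days, from at most 113 counts in a library. ACO1 had -0.29, -0.30 and 0.38. In both TFR2 and ACO1 the day 11 value was the positive one.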

How the results depend on the processing

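The number of features called, 477 as fitted, was 826 with RLE factors, 929 by library size only, 3311 by DESeq2, 818 with no filter beyond 1 count, 3272 with the replicate block, 287 and 66 by limma on log2(FPKM + 1) and log2(FPKM + 0.1), 5 with GC correction, 130 with block and GC correction joined, 8 with GC correction on the transcript nearest the implied length, and 0 to 3706 with a library left out (3706 without the shNXN library of day 11) or 0 to 4519 with a day left out (4519 without day 11). The iron genes called, 0 as fitted, were 1 (IREB2) with RLE factors, library size only, no filter or 10 counts in every library, 3 by DESeq2, 2 with the replicate block, and 0 to 4 with a library or day left out. The 4 (TFRC, SLC11A2, SLC40A1 and IREB2) came without day 11, where 4519 of all 14201 features tested were called. Other iron pathway genes called, 2 as fitted, were 6 with RLE factors, 6 by library size only, 15 by DESeq2, 5 with no filter, 17 with the replicate block, 1 (CPOX) and 0 by limma, 0 with GC correction on either transcript and 0 with both joined, and 0 to 20 with a library or 0 to 24 with a day left out. The 24 also came without day 11, beside the same 4519 of 14201 features. The causes were not tested. Signs turned for SLC40A1 in FPKM (0.64 and 0.65) and with GC correction on the nearest transcript (0.01, and 0.06 with the block), for SLC11A2 with the latter (0.17 and 0.18), for ACO1 with GC correction (0.12, 0.14 with the block, 0.10 and 0.13 on the nearest transcript) and without a library or day (-0.21 to 0.06 and -0.29 to 0.04), for TFR2 likewise (-0.69 to 0.16 and -0.63 to 0.11), for BMPR2 (0.42, 0.40, 0.44 and 0.42) and for FLVCR1 (0.04, 0.05, 0.24 and 0.24) in the same 4 GC fits. The log2 ratio of FTH1 to FTL moved from 0.00 to 0.34 in FPKM. The NXN call was lost in 6 of 9 fits without a library or day (-1.95 to -1.67). The replicate block changed the call of none of the other 7 iron genes tested. With 1 library per group and day, low counts (HAMP) and the spread between days limit what could be detected.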
